A study of Mus musculus with 6 samples.

Results

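The mevalonate arm is the first part of cholesterol synthesis, and 9 of its genes were followed in the liver of pregnant mice. The genes were Acat2, Hmgcs1, Mvk, Pmvk, Mvd, Idi1, Fdps, Ggps1 and Fdft1, chosen by name from the 56691 genes of the deposited table. All 9 had a mean of at least 1 FPKM (counts per kilobase of exon, scaled by the library total) and were among the 10756 genes tested. Liver RNA came from wild-type (WT) C57BL/6J females. While pregnant, 3 females were put on a high-fructose diet (HFrD; PF group) and 3 were kept on normal chow (NC; PC group). In the paper the HFrD began partway through pregnancy and not at its start, and livers were taken in late pregnancy. The age of the dams is not given in the labels, and no allele, transgene or drug was added in either group. The comparison asks how HFrD in pregnancy changes the liver transcriptome.

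Each library is named by its group and the number in its label, and the labels give no litter, day or batch. P-values therefore measure the spread between these libraries. Library totals lay between 16119145 and 19676361 counts. Mitochondrial transcripts took 10% to 15.3% of the PF counts and 5.03% to 9.69% of the PC counts, and Alb took 7.56% to 15.8% and 18.1% to 19.9%. All 8 hepatocyte markers were counted in every library, with a summed level of 88200 to 199000 CPM (counts per 1e6, scaled with TMM factors) in PF and 249000 to 302000 CPM in PC. Alb made up the largest part of this sum, and the markers did not all go one way. By mean FPKM, Alb, Apoa1, Apob, Trf, Fgb and Tat were lower in PF, and Ttr and Cps1 were higher. Ttr had 1836 to 3943 FPKM in PF and 1111 to 1541 FPKM in PC. In bulk liver, fewer cells of a type and less RNA per cell cannot be told apart. By a chi-square on the raw counts of the tested genes, PF2 was nearer to PC2 than to the other PF libraries. The chi-square per gene between their counts was 71.2, against 241.6 for PF2 and PF1, 262.5 for PF2 and PF3 and 111.4 for PF1 and PF3. Abundant transcripts such as Alb weigh most in this measure, so it does not give the likeness of a typical gene. PF1 stood apart in lymphocyte markers. The 5 T and B lymphocyte genes summed to 34.8 CPM there and to between 3.61 and 9.34 CPM in the other libraries, with Cd79a and Ms4a1 at 8.77 and 10.6 CPM in PF1. The part of these differences in the results below was not tested.

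The arm turns acetyl-CoA into squalene. Acat2, the cytosolic thiolase, joins acetyl-CoA units, and Hmgcs1 adds another to make HMG-CoA. After reduction of HMG-CoA to mevalonate, Mvk and Pmvk phosphorylate it, Mvd decarboxylates the product to isopentenyl diphosphate, and Idi1 converts that to its isomer. Fdps builds farnesyl diphosphate from these units. From there Fdft1 makes squalene and commits carbon to sterols, whereas Ggps1 makes geranylgeranyl diphosphate, which is used to attach lipids to proteins. The transcription factor SREBP-2 raises these enzymes when the membranes of the endoplasmic reticulum hold little cholesterol, and the liver is one of the main sites of the pathway.

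No gene of the arm passed 5% after adjustment over all tested genes, and the 3 PF livers did not behave alike. For Hmgcs1, Mvk, Idi1 and Fdft1, PF2 and PF3 lay below every PC library, while PF1 lay at the level of PC on the TMM scale. For Acat2, Pmvk and Ggps1, PF1 was the highest of the 6 libraries on that scale. Fdps and Mvd followed neither pattern.

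Per length, Hmgcs1 was the most abundant of the 9 transcripts in every library. Its deposited FPKM were 299, 72.8 and 74.5 in PF1, PF2 and PF3, and 114, 248 and 188 in PC1, PC2 and PC3. It held between 26.3% and 51.9% of the summed FPKM of the 9 genes. At the other end stood Mvk and Ggps1, which held the last 2 ranks in every library. Mvk had 2.41 to 6.93 FPKM and Ggps1 1.69 to 3.44 FPKM over the 6 libraries. Between them, the mean FPKM in PC was 45.4 ± 5.74 (SD, n = 3) for Fdft1, 37.5 ± 9.76 for Fdps, 31.5 ± 14.5 for Mvd, 28 ± 7.75 for Acat2, 20.8 ± 4.59 for Pmvk and 16.8 ± 3.97 for Idi1. In this order the ranges of neighbouring genes overlapped in PC throughout, from Fdft1 down to Idi1, while those of Hmgcs1 and Fdft1 and of Idi1 and Mvk did not. In PF the means were 56 ± 18.3 for Acat2, 54.5 ± 4.8 for Fdps, 41.7 ± 18.9 for Fdft1, 35.8 ± 15.1 for Pmvk, 34.3 ± 14.6 for Mvd and 9.81 ± 8.69 for Idi1, and the ranges of neighbouring genes overlapped from Acat2 down to Idi1. By group mean Acat2 had rank 5 in PC and rank 2 in PF, while by library it had ranks 2, 4 and 2 in PF and 5, 5 and 4 in PC. The summed FPKM of the 9 genes was 619, 261 and 283 in PF and 270, 478 and 363 in PC. PF1 was above the PC range, PF3 within it and PF2 just below it. The summed TMM-scaled CPM was 1901, 917.6 and 819.9 in PF and 1208, 2037 and 1603 in PC, and there PF1 was within the PC range and PF2 and PF3 below it.

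**Figure D1:**
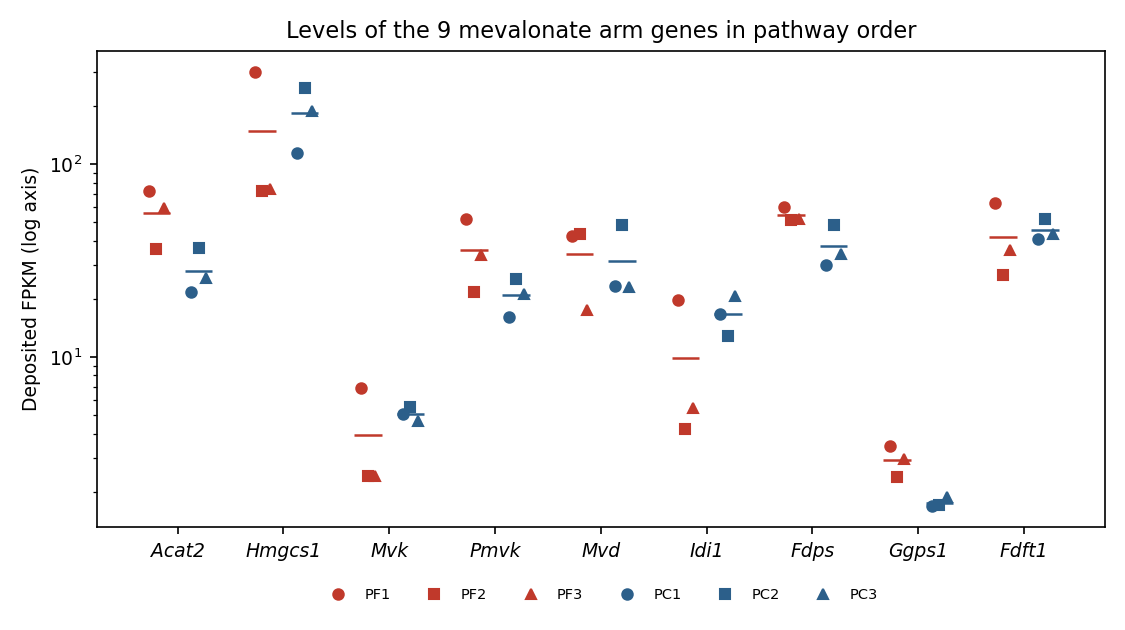
Deposited FPKM (log axis) of the 9 genes in pathway order; points are the 3 PF (red) and 3 PC (blue) libraries and short lines the group means. Hmgcs1 is highest in every library, and Mvk and Ggps1 are lowest.

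Hmgcs1 (chr13:120151915-120169796, plus strand, GRCm39, as are all gene positions that follow) makes the substrate from which mevalonate is formed. Its TMM-scaled level was 1116, 340 and 284 CPM in PF1, PF2 and PF3 and 619, 1253 and 972 CPM in PC1, PC2 and PC3. PF1 lay inside the PC range, and the other PF libraries lay below it. This gave a log2 fold change (PF minus PC) of -0.71 (SE 0.55, 95% interval -1.99 to 0.57; edgeR adjusted p = 0.55). The mean of PC was 3.04 times that of PF2 and PF3. Without PF1 the log2 fold change was -1.60 (edgeR adjusted p = 0.186). It was -0.45 without PF2 and -0.38 without PF3. PF1 was set apart here and in the next paragraphs after these values were seen.

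Mvk (chr5:114582330-114598652, plus strand), which adds the first phosphate to mevalonate, had 15.1, 6.54 and 5.34 CPM in PF and 15.9, 16.1 and 13.9 CPM in PC. The 3 PC values and PF1 were close together, and PF2 and PF3 stood well below them. Its counts were 108 in PF2 and 114 in PF3 against 243 to 299 in the other libraries. The log2 fold change was -0.77 (SE 0.37, 95% interval -1.63 to 0.09; edgeR adjusted p = 0.343), and -1.37 without PF1 (edgeR adjusted p = 0.11). It was -0.60 without PF2 and -0.50 without PF3.

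Idi1 (chr13:8935537-8942487, plus strand), the isomerase that interconverts the isoprenoid building blocks, had the most negative fold change of the arm. Its levels were 56.4, 15 and 15.7 CPM in PF and 69.2, 49.4 and 81.8 CPM in PC. PF1 again fell among the PC libraries. Over all libraries the log2 fold change was -1.20 (SE 0.52, 95% interval -2.41 to 0.01), with an edgeR adjusted p = 0.298 and a DESeq2 adjusted p = 0.132. The mean of PC was 4.36 times that of PF2 and PF3, and without PF1 the log2 fold change was -2.12 (edgeR adjusted p = 0.081). It was -0.90 without PF2 and -0.90 without PF3. When no filter on low values was used, Idi1 passed 5% (edgeR adjusted p = 0.045). It was the only one of the 9 genes that passed under any alternative.

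Fdft1 (chr14:63382599-63417027, minus strand), squalene synthase, showed the same order on a smaller scale. It had 210, 111 and 122 CPM in PF and 198, 235 and 201 CPM in PC, with PF1 within the PC range. Its log2 fold change was -0.52 (SE 0.26, 95% interval -1.13 to 0.10; edgeR adjusted p = 0.366), and -0.86 without PF1 (edgeR adjusted p = 0.188). It was -0.36 without PF2 and -0.40 without PF3. In the deposited coordinates the last 774 bases of Fdft1 overlap the end of Ctsb, a gene on the other strand that encodes a lysosomal protease. Ctsb had 343% of the counts of Fdft1, from 9128 to 13379 per library. Whether counting used the strand is not given in the sources used here, so reads from the shared stretch cannot be assigned to one of them.

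These 4 genes are 4 of the 9 with PF2 and PF3 below every PC library, and over all tested genes the share was 16.1%. The pattern was noticed in the values and is given as a description. In the deposited FPKM, which are scaled by library totals, PF2 and PF3 were below every PC library for 4 of the 9 genes as well (4.43% of tested genes), and these were the same genes. There PF2 and PF3 had 72.8 and 74.5 FPKM of Hmgcs1 against at least 114 in PC, 2.41 and 2.41 of Mvk against at least 4.62, 4.2 and 5.4 of Idi1 against at least 12.8, and 26.5 and 35.7 of Fdft1 against at least 41. PF1, however, was above every PC library in FPKM for Hmgcs1, Mvk and Fdft1, with 299, 6.93 and 62.9 FPKM against at most 248, 5.48 and 51.9. Scaled by library totals, the log2 fold changes were -0.30 for Hmgcs1, -0.37 for Mvk, -0.77 for Idi1 and -0.12 for Fdft1. Beside this pattern stand the lymphocyte markers, which were highest in PF1. The hepatocyte marker sum, which includes Alb, was 88200 CPM in PF1, 199000 CPM in PF2 and 98500 CPM in PF3. The part of either in the pattern was not tested.

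**Figure D2:**
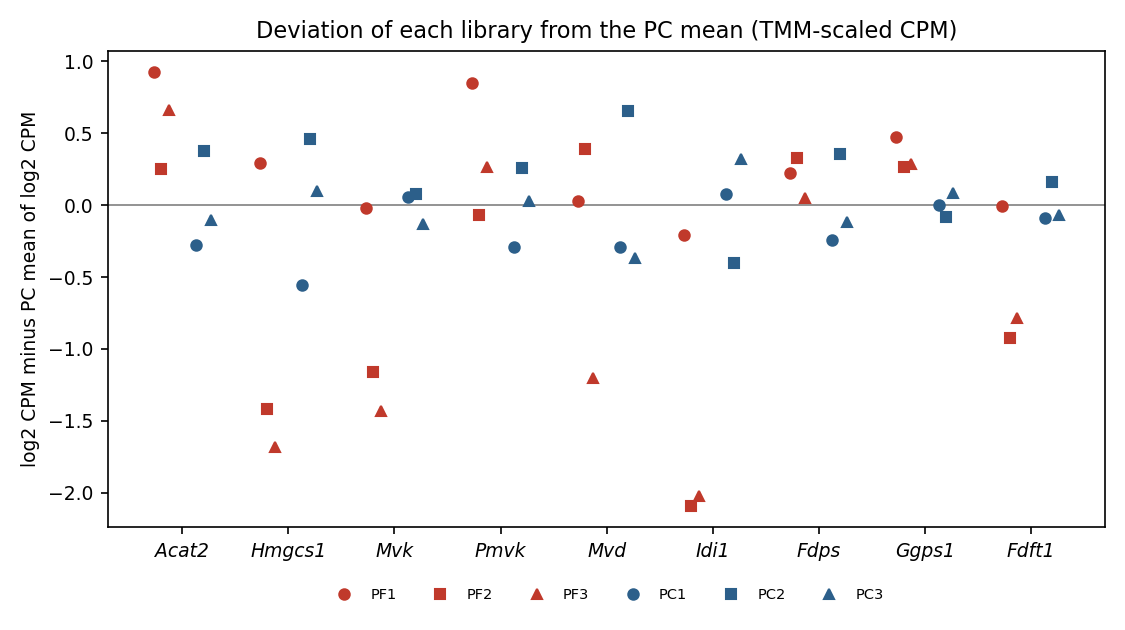
Difference of each library's log2 CPM from the mean of the 3 PC libraries for the 9 genes; red points are PF and blue points PC, and 0 is the PC mean. For Hmgcs1, Mvk, Idi1 and Fdft1, PF2 and PF3 lie between -2.09 and -0.79 and PF1 between -0.21 and 0.29.

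The proximal promoters of 3 of these genes are shown with that of Acat2, because SREBP-2 acts through short elements in this region together with the factors NF-Y and Sp1. The sequences are the 200 bases before the start site, read 5′ to 3′ on the strand of the gene, from RefSeq on GRCm38.p6. A window was on hand for 7 of the 9 genes, all but Fdps and Fdft1. Capitals mark matches, on either strand, to CACNCCAC, a loose form of the sterol regulatory element core, or to CCAAT, the NF-Y box, which reads ATTGG on the other strand. The windows are chr13:119690151-119690350 (plus strand) for Hmgcs1, chr5:114444069-114444268 (plus strand) for Mvk, chr13:8885406-8885605 (plus strand) for Idi1 and chr17:12960726-12960925 (minus strand) for Acat2.
Hmgcs1: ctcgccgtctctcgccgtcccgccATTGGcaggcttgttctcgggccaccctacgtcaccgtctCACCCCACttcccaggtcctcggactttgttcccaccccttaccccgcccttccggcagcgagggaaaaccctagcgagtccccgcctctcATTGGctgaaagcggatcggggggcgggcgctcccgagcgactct
Mvk: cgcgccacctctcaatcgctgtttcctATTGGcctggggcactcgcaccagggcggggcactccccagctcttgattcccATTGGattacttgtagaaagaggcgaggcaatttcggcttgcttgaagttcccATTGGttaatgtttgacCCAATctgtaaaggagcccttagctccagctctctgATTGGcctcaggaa
Idi1: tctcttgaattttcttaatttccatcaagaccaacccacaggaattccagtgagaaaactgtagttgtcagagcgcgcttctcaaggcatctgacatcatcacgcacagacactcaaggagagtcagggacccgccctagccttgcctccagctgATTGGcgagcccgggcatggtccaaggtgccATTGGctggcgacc
Acat2: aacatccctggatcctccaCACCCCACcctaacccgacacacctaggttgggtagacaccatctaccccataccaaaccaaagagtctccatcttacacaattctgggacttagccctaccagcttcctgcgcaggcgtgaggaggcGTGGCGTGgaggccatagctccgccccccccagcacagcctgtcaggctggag

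The element core CACCCCAC was found in Hmgcs1 and Acat2, 2 of the 7 genes, and in 2.15% of 32851 mouse promoters cut to the same length. With 1 base left free (CACNCCAC), the same 2 genes matched and 4.3% of all promoters did. Acat2 then had a further match on the other strand. CCAAT was present in 6 of the 7 genes, all but Acat2, against 29.3% of all promoters. The shares of promoters are per window, and the 7 genes had 8 windows, because Pmvk had 2. By window CCAAT was in 6 of 8, and only 1 of the Pmvk windows held it. Mvk held 5 copies, a number reached by 0.0913% of promoters, and Hmgcs1, Mvd, Idi1 and Ggps1 held 2 each. The Sp1 box GGGCGG was found in 5 of 7 genes (5 of 8 windows) and 31% of promoters, and the E-box CACGTG in none of the 7 and 5.26% of promoters. Each motif was searched on both strands, and CACCCCAC is one form of CACNCCAC. Hmgcs1 and Acat2 were the only ones of the 7 with the element core. PF2 and PF3 were below PC for Hmgcs1 and not for Acat2, but the groups overlapped for both genes. A link between the motifs and these levels was not tested. A match is a description of the letters and not a bound site.

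Mvk has a close neighbour on the other strand. Mmab, which encodes an adenosyltransferase of vitamin B12 metabolism, starts 209 bases from the start of Mvk. Its level was 44.4, 20.9 and 20.5 CPM in PF and 27.6, 44.1 and 28.8 CPM in PC. On this scale PF2 and PF3 were the lowest libraries of Mmab, as for Mvk, and PF1 was the highest. In FPKM, PF3 (6.74) was above PC1 (6.39). Mmab had a log2 fold change of -0.23 (edgeR adjusted p = 0.775).

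Acat2 (chr17:13161777-13179634, minus strand) was the gene of the arm with the highest fold change. It had 150, 93.9 and 125 CPM in PF and 64.9, 103 and 73.4 CPM in PC, so that PF2 lay below PC2 and the groups overlapped. The log2 fold change was 0.61 (SE 0.24, 95% interval 0.05 to 1.18), a 1.53-fold higher level with an unadjusted p = 0.037 and an edgeR adjusted p = 0.266. Acat2 has a close copy beside it. Its transcript and that of Acat3 were 97.7% identical over 1477 bases, and Acat3 had 108% of the counts of Acat2. A stretch of 445 bases also matched Tcp1, a chaperonin subunit gene, on the other strand at 98.7%. How reads of these stretches were shared out is not given, and the Acat2 value is uncertain to that extent. Acat3 itself had 192, 61.4 and 113 CPM in PF and 98.1, 77.5 and 113 CPM in PC, with overlapping groups.

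Pmvk (chr3:89361848-89376320, plus strand) adds the second phosphate. It had 72.1, 37.9 and 47.9 CPM in PF and 32.5, 47.7 and 40.6 CPM in PC. PF1 was the highest library and the others were mixed. Pmvk had a log2 fold change of 0.39 (SE 0.26, 95% interval -0.22 to 0.99; edgeR adjusted p = 0.489) and 0.09 without PF1.

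Ggps1 (chr13:14225244-14238073, minus strand), at the branch towards protein prenylation, was the only one of the 9 whose groups did not overlap on the TMM scale. In the deposited FPKM the groups of Fdps did not overlap either, against 34.4% of tested genes with every PF library above PC. The levels of Ggps1 were 13.2, 11.4 and 11.6 CPM in PF and 9.38, 8.83 and 9.96 CPM in PC. Over all tested genes, 11.8% had every PF library above every PC library in CPM. The difference was small, with a log2 fold change of 0.36 (SE 0.15, 95% interval 0.01 to 0.71; unadjusted p = 0.043, edgeR adjusted p = 0.276). The first 257 bases of Ggps1 overlap the start of Arid4b, a chromatin gene on the other strand with 222% of its counts. Counts of Arid4b were 515, 460 and 581 in PF and 286, 361 and 364 in PC, also higher in every PF library. Without the strand setting the share of Arid4b reads in the Ggps1 counts cannot be told.

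Fdps (chr3:89000895-89009266, minus strand) and Mvd (chr8:123160340-123170161, minus strand) had the fold changes nearest to 0 in the fit of all libraries with TMM scaling. Fdps had 205, 220 and 182 CPM in PF and 148, 225 and 162 CPM in PC, with a log2 fold change of 0.18 (SE 0.21, 95% interval -0.30 to 0.66; edgeR adjusted p = 0.691). It was 0.06 without PC1, 0.38 without PC2 and 0.54 when scaled by library totals. Pseudogenes of Fdps exist, and the most counted, Gm3571, was 98.9% identical over 1062 bases and had 11.2% of the counts of Fdps. Mvd had 63.6, 81.9 and 26.8 CPM in PF and 50.9, 98.8 and 48.4 CPM in PC. PF3 was its lowest library and PC2 its highest. Mvd had a log2 fold change of -0.20 (SE 0.44, 95% interval -1.22 to 0.82; edgeR adjusted p = 0.848), which turned to 0.14 without PF3, to 0.21 without PC2 and to 0.12 when scaled by library totals. The unnamed gene ENSMUSG00000121107 starts 204 bases from Mvd on the other strand. It had 59, 156 and 23 counts in PF and 72, 136 and 67 in PC, where PF3 was likewise lowest.

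Taking the 9 genes as a list, 4 had a positive fold change, against 52.2% of all tested genes, and 5 a negative one. Their median log2 fold change was -0.20 against 0.02 over all tested genes. Scaled by library totals it was 0.12 against 0.39. At 5% after adjustment, 0 of the 9 and 0% of all tested genes passed with edgeR. DESeq2 called 0 of the 9 and 4.7% of the 10536 genes to which it gave an adjusted p. At an unadjusted edgeR p under 0.05 stood 2 of the 9 genes, against 17% of tested genes. Acat2 and Ggps1 were the 2 higher ones, against 9.13% of tested genes, and 0 were lower, against 7.9%. PF1 was the highest library for 3 of the 9 and for 18.1% of tested genes on the TMM scale, and for 7 of the 9 and 41.9% of tested genes in the deposited FPKM. Without PF1, Hmgcs1, Mvk, Idi1 and Fdft1 were lower at an unadjusted edgeR p under 0.05, against 6.49% of tested genes, and none passed after adjustment. These 4 genes had been singled out by the order of their libraries, which favours a small p once PF1 is left out.

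**Figure D3:**
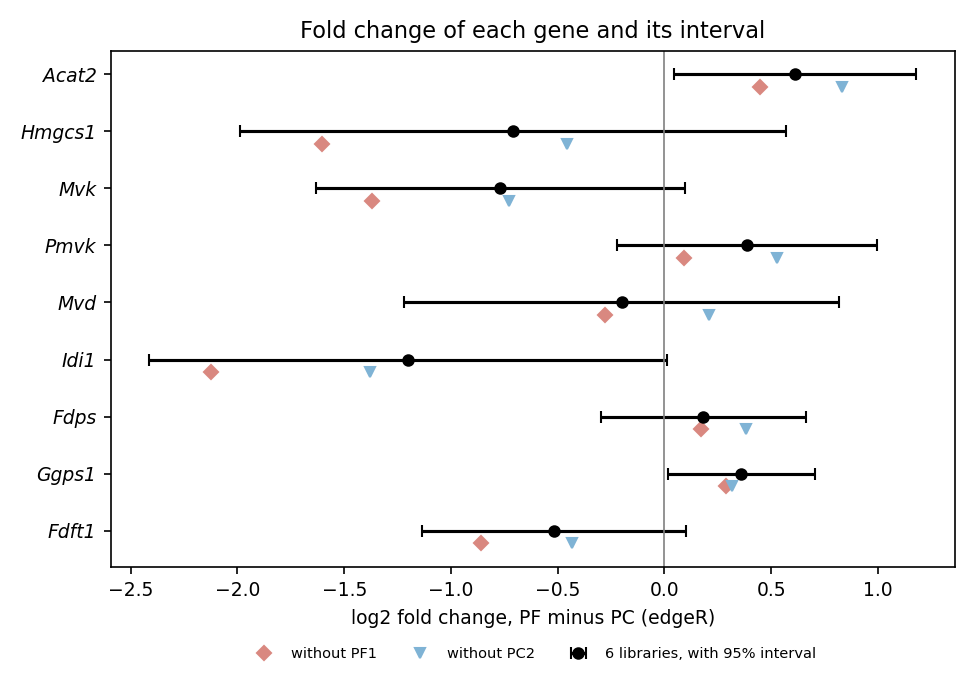
Log2 fold change (PF minus PC, edgeR) of the 9 genes with its 95% interval from all 6 libraries (black), and the value without PF1 (diamond) or without PC2 (triangle). Without PF1 the values of Hmgcs1, Mvk, Idi1 and Fdft1 move from -0.71, -0.77, -1.20 and -0.52 to -1.60, -1.37, -2.12 and -0.86.

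The spread within PF was wider than within PC for 7 of the 9 genes, as it was for 58.7% of tested genes. The SD of log2 CPM in PF was 1.07 for Hmgcs1 and 1.07 for Idi1, and only 2.66% of tested genes had one at least as large as Hmgcs1. Fdps (0.14) and Ggps1 (0.112) were the steadiest genes in PF. The median SD over the 9 genes was 0.496 in PF and 0.317 in PC, against 0.236 and 0.199 over all tested genes.

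Ratios within a library do not depend on the library scaling, and 8 ratios of genes that act near each other were formed from counts per kilobase. For 3 of them the groups did not overlap. The ratios were chosen after their values were seen, so the p-values below are only a description. On the TMM scale 11.8% of single tested genes had every PF library above PC and 11.1% every PF library below. No such share was formed for ratios of other gene pairs. Ratios with Acat2 or Fdft1 carry the uncertainty of their counts given above. Hmgcs1 over Acat2 was 4.13, 2.01 and 1.26 in PF and 5.28, 6.76 and 7.34 in PC. Pmvk over Mvk was 7.47, 9.05 and 14 in PF and 3.19, 4.62 and 4.56 in PC. Fdft1 over Fdps, the entry into sterols against its precursor enzyme, was 1.05, 0.516 and 0.687 in PF and 1.37, 1.07 and 1.27 in PC. PF1 and PC2 were close in this ratio. The exact two-sided permutation p of each was 0.1, the smallest that 3 against 3 can give, and 0.267 after adjustment over the 8 ratios. Fdps over Idi1 was 3.03, 12.2 and 9.64 in PF and 1.78, 3.8 and 1.65 in PC, and it overlapped (exact permutation p = 0.2, adjusted p = 0.4). Hmgcs1 over Mvk overlapped as well, with 30.3 to 43.1 in PF and 22.6 to 45.2 in PC.

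**Figure D4:**
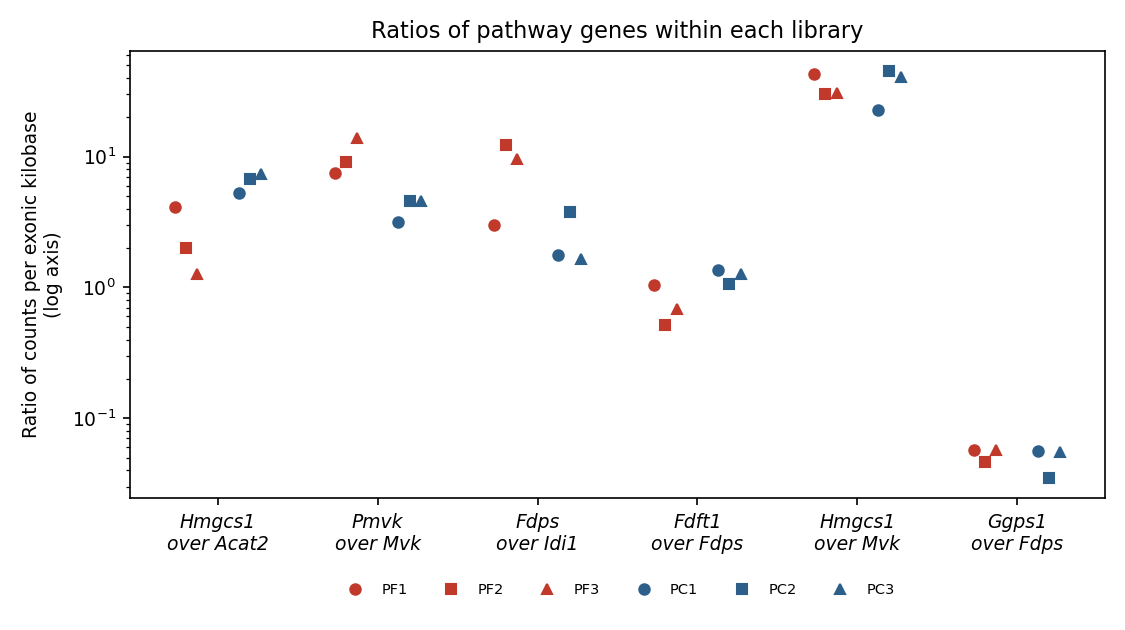
Ratios of counts per exonic kilobase between 2 genes of the arm within each library (log axis), for 6 of the 8 ratios; red points are PF and blue points PC. Hmgcs1 over Acat2, Pmvk over Mvk and Fdft1 over Fdps have no overlap between groups, and Fdps over Idi1, Hmgcs1 over Mvk and Ggps1 over Fdps overlap.

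Across the 6 libraries, log2 CPM of Hmgcs1, Fdft1 and Mvk followed the mean of the other 8 genes most closely, with Pearson r of 0.961, 0.885 and 0.842. Idi1 had r = 0.602, while Fdps (0.099), Acat2 (-0.01) and Ggps1 (-0.21) showed little relation. These correlations are a description over 6 libraries that share the group difference and the same scaling. Likeness to the mean of the arm was ranked over 9184 other protein-coding genes, without provisional names. The 8 whose log2 CPM was most like it were Adsl, Pigl, Bri3bp, Pold4, Mmab, Ap4b1, Ngrn and Mrps27, with r from 0.964 to 0.984. These are the highest r of many genes over 6 libraries, and a shared control was not tested. Some varied little, such as Ngrn with 11.9 to 13.7 CPM. Mmab is the neighbour of Mvk described above and is also in the list of SREBP-2 targets.

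The sterol arm, which runs from squalene to cholesterol, gave 11 tested genes. Of these, 3 had a positive and 8 a negative fold change, with a median log2 fold change of -0.11. The median was -0.40 without PF1 and 0.24 when scaled by library totals. With edgeR 0 passed 5%, and 1 had an unadjusted p under 0.05, against 17% of tested genes. With DESeq2 1 passed, against 4.7% of the genes to which it gave an adjusted p. For Msmo1 and Cyp51, early demethylating enzymes, PF2 and PF3 were the lowest libraries, as for Hmgcs1. Msmo1 was at 221, 73.5 and 71.5 CPM in PF and 234 to 242 CPM in PC. On the TMM scale, unlike for Hmgcs1, PF1 too lay below PC there. Every PF library was below every PC library for 11.1% of tested genes on that scale. Cyp51 was at 277, 121 and 118 CPM in PF and 232 to 295 CPM in PC, with PF1 inside the PC range. In FPKM, PF1 was above every PC library for both genes. It had 44.4 FPKM of Msmo1 against at most 35.5 in PC, and 77.2 of Cyp51 against at most 60.7. Hsd17b7 had a log2 fold change of -0.33 (edgeR adjusted p = 0.461). On the TMM scale PF2 and PF3 lay below every PC library for 5 of the 11 genes, against 16.1% of tested genes.

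Among the regulators, Srebf1, which encodes the SREBP-1 proteins of fatty acid synthesis, had 186, 255 and 415 CPM in PF and 99.6, 202 and 64.6 CPM in PC (log2 fold change 1.22, edgeR adjusted p = 0.249). Scap, the carrier that moves SREBPs to the Golgi, had 60.2, 80.7 and 65.1 CPM in PF and 91.8, 106 and 96.9 CPM in PC (log2 fold change -0.52, edgeR adjusted p = 0.205). Mbtps1 and Insig1 had log2 fold changes of -0.25 and 0.34. Of the 6 genes tested in this list, 2 had a positive and 4 a negative fold change. With edgeR and DESeq2 0 passed 5%, and Srebf1 and Scap had an unadjusted edgeR p under 0.05, against 17% of tested genes. Srebf2, which encodes SREBP-2, is outside the naming rule and was looked up after its values were seen. It had 43, 27.6 and 27 CPM in PF and 33.3, 41.6 and 41.9 CPM in PC, with PF2 and PF3 below every PC library on this scale. In FPKM, PF3 (4.54) was above PC1 (3.94).

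SREBP-2 targets outside synthesis were mixed, with 4 positive and 4 negative fold changes among 8 genes. With edgeR and DESeq2 0 passed 5%, and 1 (Tmem97) had an unadjusted edgeR p under 0.05, against 17% of tested genes. Rdh11 had a log2 fold change of 0.23 and Npc1 of 0.20. Tmem97 had 68.7, 222 and 70.4 CPM in PF and 265 to 290 CPM in PC (log2 fold change -1.22, edgeR adjusted p = 0.246). Here PF2, not PF1, was nearest to PC.

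Upstream of the arm stand genes that supply or use acetyl-CoA. Acly, which makes cytosolic acetyl-CoA from citrate, had 739, 819 and 1525 CPM in PF and 167, 345 and 173 CPM in PC. Every PF library was above every PC library, with a log2 fold change of 2.17 (edgeR adjusted p = 0.132, DESeq2 adjusted p = 6.62e-06). Acss2, which makes acetyl-CoA from acetate, and Aacs, which activates acetoacetate, had log2 fold changes of 1.30 and 1.10 (edgeR adjusted p = 0.225 and 0.272), also without overlap. For Acss2 the gap was narrow, with 397 CPM in PF2 and 385 CPM in PC2. Every PF library was above every PC library for 11.8% of tested genes on the TMM scale and for 34.4% in FPKM. DESeq2 called 1 of the 8 tested genes of this list higher (Acly) and 1 lower, and edgeR called 0, with 3 higher and 1 lower at an unadjusted p under 0.05. Over all tested genes, 9.13% were higher and 7.9% lower at that edgeR p. DESeq2 called 4.7% of the genes to which it gave an adjusted p. Over the list, 5 had a positive and 3 a negative fold change, with a median of 0.24.

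Genes that use isoprenoids for other ends had 7 positive and 8 negative fold changes among 15 tested, with a median of -0.004 on the log2 scale. With edgeR and DESeq2 0 passed 5%, and 2 had an unadjusted edgeR p under 0.05, against 17% of tested genes. Dhdds and Dolk, which act in dolichol synthesis, had log2 fold changes of -0.51 and -0.49 (edgeR adjusted p = 0.181 and 0.237), with every PF library below every PC library on the TMM scale, as for 11.1% of tested genes. Nus1, the partner of Dhdds, and Rabggtb, a prenyltransferase subunit, had log2 fold changes of -0.28 and 0.18.

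**Figure D5:**
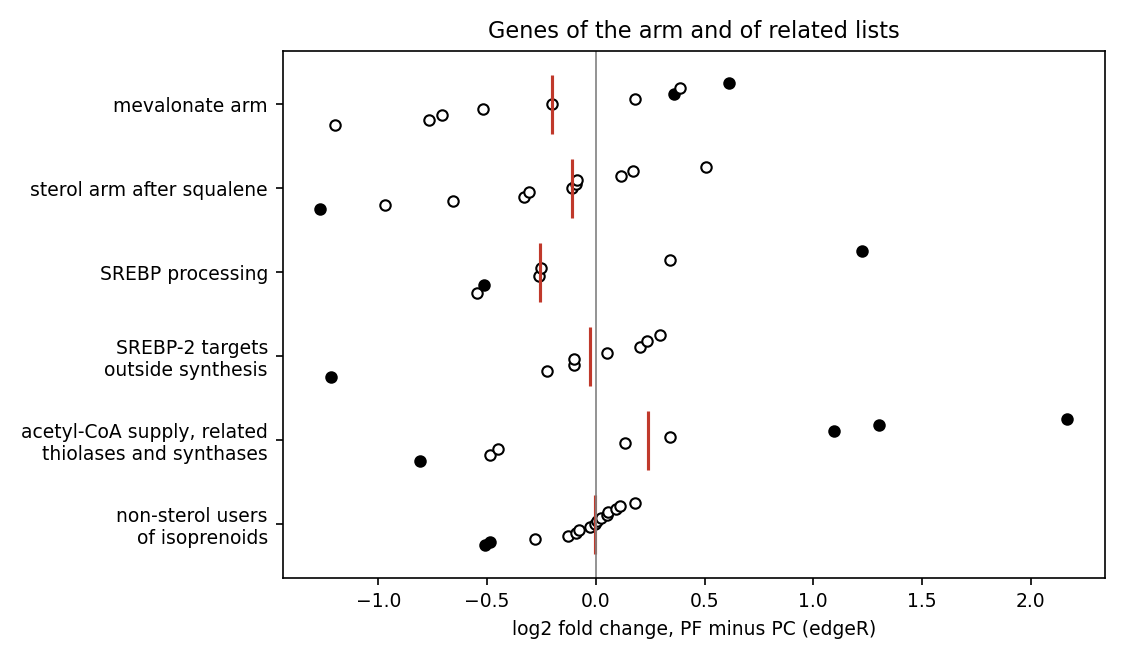
Log2 fold change (PF minus PC, edgeR) of each tested gene in the mevalonate arm and 5 related lists; filled points have an unadjusted p under 0.05, and red lines are list medians. The medians run from -0.26 for SREBP processing to 0.24 for acetyl-CoA supply, with -0.20 for the mevalonate arm, in the fit of all libraries with TMM scaling.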

How the data were processed

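Poly(A) RNA of 6 mouse livers was sequenced, 3 in the PF group and 3 in the PC group, grouped by the labels. Tools in the submitters' processing notes are HISAT2 2.2.1, cutadapt 1.9.1, DESeq2 (no version) and HTSeq 0.6.1, on GRCm39. Counts were deposited as whole numbers without normalisation. The FPKM deposited by the authors divide each count by exon length and library total, so a few abundant genes in a library lower the rest. Symbols were matched by Ensembl identifier for 52073 of 56691 genes. Coordinates are those deposited.

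The 10756 genes averaging at least 1 FPKM were tested with edgeR 4.0.16 (R 4.3.3) by the quasi-likelihood F-test on TMM-scaled counts, PF minus PC, two-sided, no covariate, with p-values adjusted by Benjamini-Hochberg across these genes (threshold 0.05). The fit was tested on simulated counts. Alternatives were DESeq2 1.42.0, other scalings and filters, limma 3.58.1 on log2(FPKM + 1) and log2(FPKM + 0.1), a replicate block and each library left out. Each standard error was obtained by dividing the fold change (log2) by the root of F. Copies were found with blastn 2.17.0+ (at least 95% identity over 250 bases).

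All 9 genes are named, with up to 4 genes of smallest p per related list, overlapping or divergent neighbours and the 8 genes most like the arm. The 9 genes and the lists were chosen with earlier results of these data known, and the ratios and library patterns after their values were seen. Markers of 8 cell types were summed. Ranges of summed CPM over all libraries were 25 to 82.1 for cholangiocyte, 197 to 351 for Kupffer cell, 106 to 159 for endothelial, 148 to 250 for stellate, 1.91 to 6.81 for neutrophil and 55.5 to 243 for erythroid markers, and no marker was at 0 in all libraries. Other enzymes of the arm were not analysed here, and a few genes covered by the naming rule are not reported here.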

Additional observations from a re-analysis of the deposited data

How the results depend on the processing

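None of the 9 genes passed 5% with edgeR in the reported fit, with DESeq2, with the other scalings, with limma or with any library left out; without a filter 1 did (Idi1, log2 fold change -1.24). Mvd turned to 0.12 with library totals, 0.10 with limma on log2(FPKM + 1), 0.10 with a pseudocount of 0.1, and lay between -0.56 and 0.21 with 1 library left out (0.14 without PF3, 0.21 without PC2). The median of the 9 genes lay between -0.38 and 0.21 with 1 library left out and was 0.12 with library totals, where the median of all tested genes was itself 0.39 (0.02 in the reported fit, 0.29 and 0.36 with limma). Medians of the related lists moved too. With library totals they were 0.24 for sterol genes, 0.12 for SREBP processing, 0.35 for SREBP-2 targets, 0.63 for acetyl-CoA supply and 0.36 for non-sterol users. SREBP processing was at 0.03 without PC3 and acetyl-CoA supply at 0.03 without PF1. The cause of these changes was not tested.

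Over all genes, edgeR called 0 higher and 0 lower, and 982 and 850 at an unadjusted p under 0.05 (53.6% higher, against 93.7% with library totals and 92.5% and 92.6% with limma). Calls were 213 higher and 282 lower with DESeq2, 161 and 19 with library totals, 239 and 316 without a filter, 0 and 1 with filterByExpr, 2 and 2 or 1 and 1 with limma, and, with 1 library left out, 0 to 128 and 0 to 275 (both highest without PF2). Without a filter the lists of sterol genes, SREBP-2 targets and acetyl-CoA supply had 1, 1 and 3 calls; DESeq2 gave 1 for sterol genes and 2 for acetyl-CoA supply, library totals 1 for acetyl-CoA supply. With 1 library left out, SREBP-2 targets and acetyl-CoA supply each had 0 to 1 calls (1 without PF2). The cause was not tested.

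Deviations of same-numbered libraries from their group means had r = -0.165, 0.268 and 0.101 for numbers 1, 2 and 3. Between different numbers r ran from -0.335 to 0.311. The labels state no pairing, and with 6 libraries centred within groups these values cannot settle whether the numbers pair the samples. With the number as a replicate block, 0 of the 9 genes and 0 of all genes passed, and the log2 fold changes of Hmgcs1 and Idi1 were -0.99 and -1.47, with a median of -0.26. The SE was widest for Hmgcs1 (0.55), Idi1 (0.52) and Mvd (0.44) and narrowest for Ggps1 (0.15), a gene with 139 to 262 counts.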
